A study of Homo sapiens with 6 samples.

Results

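The genes described here build the centromere and the kinetochore, except CENPJ, a centriole protein that shares only the CENP name. They are the symbols of the deposited table that read CENP followed by exactly 1 capital letter, 21 in number, together with 13 named outer and linking kinetochore genes: NDC80, NUF2, SPC24, SPC25, KNL1, DSN1, NSL1, PMF1, MIS12, ZWINT, SKA1, SKA2 and SKA3. This gives 34 of the 59008 gene symbols in the table. The rule uses gene names and not measured values, but it was set with earlier results of these data known. With a mean level of at least 1 TPM (transcripts per 1000000) over the libraries, 33 of the 34 entered the comparisons, among 14988 such genes. The gene left out was CENPC, whose TPM lay between 0.357 and 0.837 in the 6 libraries.

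The centromere is the part of a chromosome whose nucleosomes carry the histone H3 variant CENP-A, and on it a set of CENP proteins, the constitutive centromere network, stays bound through the cell cycle. In mitosis the Mis12, Knl1 and Ndc80 complexes are added on top. The Ndc80 complex grips the spindle microtubules, the Ska complex strengthens that grip on moving microtubule ends, and Knl1 carries the spindle checkpoint, which delays anaphase until chromosomes are attached. Many of these genes are transcribed mainly in late S phase, G2 and mitosis, so their mRNA level in a bulk sample follows how many cells are cycling. Paclitaxel acts on the other side of the same attachment, by stabilizing microtubules.

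RNA was sequenced from Hey and SKOV3, both established lines grown from human ovarian cancer, in 3 states with 1 library for each line and state. Parental cells were untreated. Polyploid giant cancer cells (PGCCs) are enlarged cells with multiplied DNA that survive the drug, here 500 nM paclitaxel for 16 h, and their libraries carry a treatment label of 3 days of recovery. The title of the SKOV3 PGCC library gives day 7 instead, while the methods of the study place RNA collection on recovery day 3, and the day of that library is therefore uncertain. Daughter cells are the small cells that bud from PGCCs. They had received the same drug and 30 days of recovery, and both daughter libraries are labelled clone 1, so they may stand for 1 clone of each line. Since no state of a line was repeated, no value below carries a replicate error, and the second line was the only repeat of each comparison. The methods of the study describe close totals of mapped reads for all libraries. The table gives TPM without read counts, so the number of reads behind each gene's value cannot be given.

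The labels were set against defining genes. ERBB2, which is amplified in SKOV3, was at 1127 to 1778 TPM in the SKOV3 libraries and at 8.20 to 14.1 TPM in the Hey libraries. The keratins KRT8 and KRT18 were at 220 TPM or more in all 6 libraries. The epithelial genes KRT19, EPCAM and CDH1 were at or below 3.60 TPM in every Hey library, with CDH1 listed at 0 in 2 of them. PTPRC of leukocytes and PECAM1 of endothelium did not pass 0.425 TPM in any library, and COL1A2 and DCN of fibroblasts did not pass 1.33 TPM, whereas COL1A1 reached 16.3 TPM in SKOV3 daughter cells. The share of TPM on mitochondrial genes was 2.64%, 12.3% and 7.60% in Hey parental cells, PGCCs and daughter cells, and 9.17%, 7.37% and 14.8% in those of SKOV3.

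The windows around the start sites of 5 genes are printed to show the sequences at both ends of the range of responses described next: SPC25, SKA3 and NUF2 had the 3 lowest mean PGCC to parental differences over the lines among members with an entry, and CENPX and CENPT the 2 highest. Each window runs from 250 bases before to 50 bases after the RefSeq start site (GRCh38.p14), on the strand of the gene. SPC25 lies at chr2:168890381-168890680 on the minus strand, SKA3 at chr13:21176503-21176802 on the minus strand, NUF2 at chr1:163321704-163322003 on the plus strand, CENPX at chr17:82022829-82023128 on the minus strand and CENPT at chr16:67847644-67847943 on the minus strand. Capitals mark TTTGAA or TTCGAA, the core of the cell cycle genes homology region, and CCAAT, the box bound by NF-Y, in either orientation.
SPC25: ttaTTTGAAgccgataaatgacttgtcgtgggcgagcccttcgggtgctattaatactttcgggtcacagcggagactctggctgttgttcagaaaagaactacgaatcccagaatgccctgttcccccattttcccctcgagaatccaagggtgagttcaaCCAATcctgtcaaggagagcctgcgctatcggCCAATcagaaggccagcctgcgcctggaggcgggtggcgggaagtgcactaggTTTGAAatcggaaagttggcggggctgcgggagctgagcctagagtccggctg
SKA3: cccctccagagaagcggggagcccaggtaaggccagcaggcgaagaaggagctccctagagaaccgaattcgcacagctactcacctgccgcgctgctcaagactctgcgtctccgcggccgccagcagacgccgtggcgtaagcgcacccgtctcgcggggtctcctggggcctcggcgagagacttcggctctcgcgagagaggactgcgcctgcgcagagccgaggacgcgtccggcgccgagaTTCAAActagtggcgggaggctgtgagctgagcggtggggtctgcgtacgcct
NUF2: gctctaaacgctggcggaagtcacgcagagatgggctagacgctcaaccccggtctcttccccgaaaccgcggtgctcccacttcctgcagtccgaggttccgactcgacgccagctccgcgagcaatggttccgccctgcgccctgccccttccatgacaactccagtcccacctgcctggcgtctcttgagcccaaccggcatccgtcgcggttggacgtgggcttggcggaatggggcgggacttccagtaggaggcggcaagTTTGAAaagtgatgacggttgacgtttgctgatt
CENPX: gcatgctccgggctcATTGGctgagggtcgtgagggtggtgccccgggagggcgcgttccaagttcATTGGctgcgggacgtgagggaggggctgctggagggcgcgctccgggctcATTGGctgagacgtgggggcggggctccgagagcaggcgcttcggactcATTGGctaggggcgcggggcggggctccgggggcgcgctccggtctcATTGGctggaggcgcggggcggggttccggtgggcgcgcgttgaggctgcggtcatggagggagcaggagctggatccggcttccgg
CENPT: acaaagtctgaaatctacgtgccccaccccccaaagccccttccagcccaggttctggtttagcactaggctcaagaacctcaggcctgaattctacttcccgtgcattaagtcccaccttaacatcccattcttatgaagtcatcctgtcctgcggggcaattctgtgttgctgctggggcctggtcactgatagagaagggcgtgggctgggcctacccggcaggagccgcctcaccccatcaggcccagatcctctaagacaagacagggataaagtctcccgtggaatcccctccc
SPC25 held TTTGAA at 3 and at 247 bases upstream of the start and CCAAT at 56 and 88 bases upstream. SKA3 held TTTGAA on the opposite strand 3 bases upstream, where it reads TTCAAA, and NUF2 held it at position 17 after the start. CENPX held CCAAT on the opposite strand at 5 places, where it reads ATTGG, and none of the searched letters stood in the CENPT window. A window was found for 29 of the 34 genes, all but CENPH, CENPJ, CENPL, CENPM and KNL1. TTTGAA or TTCGAA stood in 12 of the 29 (41.4%), against 16.4% of all 35116 promoter windows and 15.6% of the 10493 tested genes with a window. Members and tested genes were counted by gene, and the 35116 by window. The 12 were CENPA, CENPC, CENPF, CENPN, CENPO, CENPW, NDC80, NUF2, SKA1, SKA3, SPC25 and ZWINT. CCAAT stood in 16 of the 29 (55.2%), against 34.6% of all windows and 43.5% of tested genes with a window. Both kinds stood in 7 (24.1%), against 6.38% and 8.61%. A match describes letters only and does not show that a factor binds there.

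In parental cells these mRNAs were of middling abundance. TPM is scaled by transcript length, so levels of different genes can be set side by side, and the median of the 34 genes was 24.8 TPM in Hey and 44.1 TPM in SKOV3 parental cells. SKA2, a small subunit of the Ska complex, led the order in all 6 libraries, at 143, 104 and 188 TPM in Hey parental cells, PGCCs and daughter cells and at 285, 170 and 246 TPM in those of SKOV3. CENPC, whose protein links CENP-A nucleosomes to the Mis12 complex, was the lowest of the 34 in every SKOV3 library, and in Hey only CENPV, listed at 0 in all 3 libraries, was below it. Summed over the 34 genes, the level was 1118, 480 and 1561 TPM in Hey parental cells, PGCCs and daughter cells, and 2406, 1410 and 1582 TPM in SKOV3. The sum was thus lowest in PGCCs of both lines, above parental cells in Hey daughter cells, and far below parental cells in SKOV3 daughter cells.

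**Figure D1:**
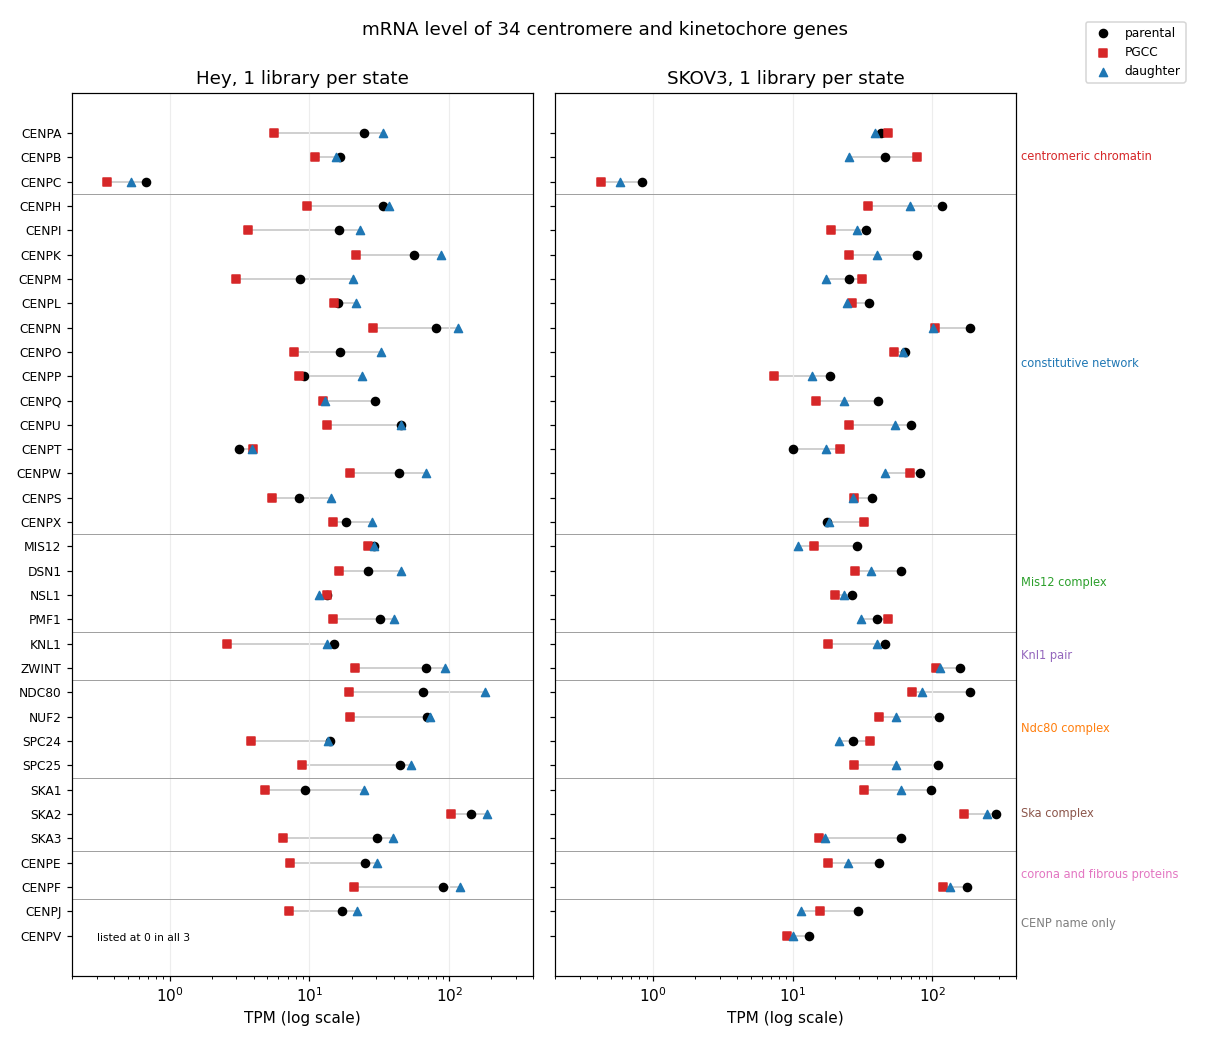
TPM of each of the 34 genes on a log axis, grouped by role, with parental cells as circles, PGCCs as squares and daughter cells as triangles, and a grey line spanning the 3 libraries of a line. In Hey most squares lie left of both other symbols, while in SKOV3 the circles of many genes lie to the right and the triangles lie near the squares. CENPV has no symbol in Hey because it was listed at 0.

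The first comparison asks how the genes stood in PGCCs against untreated cells of the same line. A gene is called lower or higher where log2(TPM + 1) differed by at least 1, which is 2-fold on that scale and understates the fold of genes with few TPM. In Hey, 20 of the 33 tested genes (60.6%) were called lower and 0 higher, against 5.22% of all tested genes called lower and 7.67% called higher, and their median difference was -1.18 against 0.00 for all tested genes. In SKOV3, 13 of 33 (39.4%) were called lower and 1 higher, against 4.96% and 9.94% of all tested genes, with a median of -0.80 against 0.02. Below 0 were 30 of the 33 genes in Hey and 26 in SKOV3, and the share of all tested genes below 0 was not counted. Called lower in both lines were 10 of the 33 genes, against 0.834% of all tested genes: CENPE, CENPH, CENPK, CENPQ, CENPU, KNL1, NDC80, NUF2, SKA3 and SPC25. They are 50% of the members called lower in Hey and 76.9% of those called lower in SKOV3. Among all tested genes, 125 were called lower in both lines, of 782 called lower in Hey and 744 in SKOV3. In a bulk library, fewer cells in mitosis and less of an mRNA in each cell cannot be told apart.

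**Figure D2:**
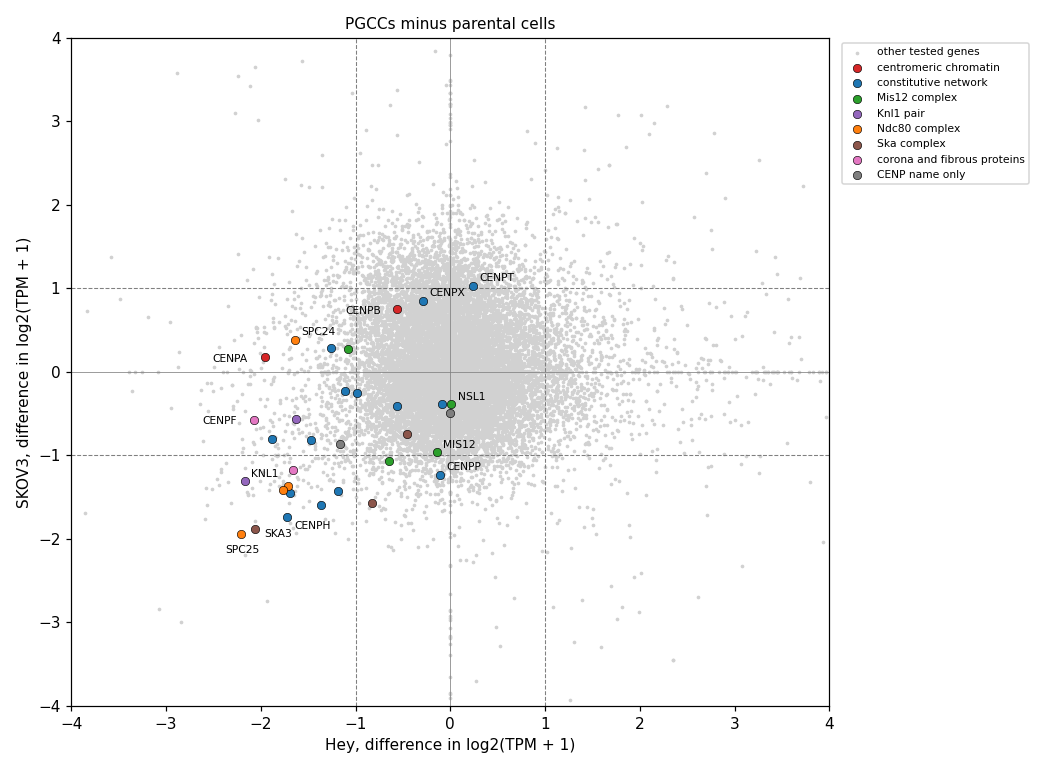
Difference of log2(TPM + 1) between PGCCs and parental cells in Hey (x axis) and SKOV3 (y axis), with the 33 tested genes coloured by role, all other tested genes in grey and dashed lines at the 2-fold call. The 10 genes of the lower left corner were called lower in both lines, CENPA and SPC24 lie far left but above 0 in SKOV3, and 78 grey genes fall outside the axes.

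Of the 3 genes of centromeric chromatin, CENPA stood apart between the lines. CENPA encodes the histone variant that marks the centromere (chr2:26764289-26801067). It was at 24.5, 5.57 and 33.7 TPM in Hey parental cells, PGCCs and daughter cells, and at 42.7, 48.4 and 39.2 TPM in those of SKOV3. The Hey PGCC value was the lowest of the 6 by a wide margin, whereas the SKOV3 PGCC value was the highest, and the differences to parental cells were -1.96 and 0.18. CENPB, a protein that binds a short motif in satellite DNA, had differences of -0.56 in Hey and 0.75 in SKOV3, neither of them called, and -0.43 and -0.31 with the trend over GC content and transcript length removed that is described further on. CENPC, which was left out of the calls for its low level, had -0.30 and -0.36. No test can compare the lines here, since each difference rests on 1 library against 1 library.

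Of the 14 genes of the constitutive network, 8 were called lower in Hey PGCCs and 5 in SKOV3 PGCCs, and 4 were called in both. Of all tested genes, 5.22%, 4.96% and 0.834% were. With the GC and length trend removed, only CENPH and CENPP of the network kept their SKOV3 calls, at -1.34 and -1.45. CENPH and CENPK belong to the group that also holds CENPI and CENPM, and which sits in the middle of the network. CENPH (chr5:69189574-69210357) was at 33.8, 9.56 and 37.0 TPM in Hey parental cells, PGCCs and daughter cells, and at 118, 34.7 and 68.9 TPM in SKOV3. CENPK (chr5:65517766-65563168) was at 56.5, 21.4 and 86.8 TPM in Hey and at 78.2, 25.3 and 40.2 TPM in SKOV3. In both genes the PGCC library was the lowest of its line, with differences of -1.72 and -1.73 for CENPH and -1.36 and -1.59 for CENPK in Hey and SKOV3.

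CENPQ and CENPU belong to the CENP-O group, which helps to hold the mitotic kinase PLK1 at the centromere. CENPQ (chr6:49463370-49493107) was at 29.5, 12.4 and 13.0 TPM in Hey parental cells, PGCCs and daughter cells, and at 41.2, 14.7 and 23.3 TPM in SKOV3. CENPU (chr4:184694085-184734130) was at 45.3, 13.3 and 45.1 TPM in Hey and at 70.5, 25.2 and 54.3 TPM in SKOV3. Hey daughter cells had CENPU at the parental level and CENPQ at the level of PGCCs. The PGCC to parental differences were -1.18 and -1.43 for CENPQ and -1.69 and -1.45 for CENPU.

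The other network genes were called in 1 line or in none. CENPI, CENPM, CENPN and CENPW were called lower in Hey, from -1.89 to -1.12, and CENPP in SKOV3, at -1.23. CENPT, which carries a second docking site for the Ndc80 complex, was the 1 gene called higher, with 10.1 and 21.7 TPM in SKOV3 parental cells and PGCCs and a difference of 1.03. In Hey it was at 3.15 and 3.91 TPM, a difference of 0.24. CENPL, CENPO, CENPS and CENPX were not called in either line, and CENPX had -0.29 in Hey and 0.85 in SKOV3. The value of CENPS is uncertain because the read-through gene CENPS-CORT covers it and was itself listed at up to 21.9 TPM.

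In the outer kinetochore the Mis12 complex, which bridges the inner and outer layers, had few calls. Only PMF1 was called lower in Hey, at -1.08, and only DSN1 in SKOV3, at -1.07, while NSL1 was at 0.01 and -0.39 and MIS12 at -0.14 and -0.96. PMF1 overlaps the read-through gene PMF1-BGLAP, which was at 2.28 to 6.10 TPM. KNL1, the scaffold that holds the BUB checkpoint proteins (chr15:40594020-40664342), was at 14.9, 2.55 and 13.4 TPM in Hey parental cells, PGCCs and daughter cells, and at 46.0, 17.9 and 40.0 TPM in SKOV3. Its PGCC value was the lowest of each line and its daughter value was close to that of parental cells in both. The differences to parental cells were -2.17 and -1.31, and those of its partner ZWINT were -1.63 and -0.57.

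The Ndc80 complex was called lower in 4 of 4 genes in Hey PGCCs and in 3 of 4 in SKOV3 PGCCs, against 5.22% and 4.96% of all tested genes. With the GC and length trend removed, only SPC25 kept its SKOV3 call, at -1.42, while NDC80 and NUF2 were both at -0.84. NDC80 (chr18:2571557-2616635), the subunit with the microtubule-binding head, was at 64.6, 19.1 and 182 TPM in Hey parental cells, PGCCs and daughter cells, and at 188, 71.9 and 85.0 TPM in SKOV3. Its partner NUF2 (chr1:163266576-163355764) was at 69.2, 19.6 and 73.0 TPM in Hey and at 112, 41.7 and 54.5 TPM in SKOV3. SPC25 (chr2:168834132-168913371), which anchors the complex to the inner kinetochore, was at 44.7, 8.87 and 53.2 TPM in Hey and at 109, 27.7 and 54.8 TPM in SKOV3. For all 3 genes the PGCC library was the lowest of its line, and SPC25 had the lowest difference of the 33 genes in both lines, -2.21 and -1.95. SPC24, which pairs with SPC25, departed from it in SKOV3, with 14.0, 3.84 and 13.6 TPM in Hey and 27.0, 35.6 and 21.6 TPM in SKOV3, a difference of -1.64 in Hey and 0.38 in SKOV3. The SKOV3 difference of SPC24 was 0.11 with the trend removed.

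In the Ska complex SKA3 (chr13:21153595-21176552) was at 30.2, 6.51 and 39.9 TPM in Hey parental cells, PGCCs and daughter cells, and at 59.6, 15.5 and 17.2 TPM in SKOV3. It was low in PGCCs of both lines, and in SKOV3 it was nearly as low in daughter cells. The differences between PGCCs and parental cells were -2.06 and -1.88. SKA1 was called lower in SKOV3 at -1.57 and had -0.83 in Hey, and SKA2 had -0.45 and -0.75.

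CENPE, a kinesin motor that carries chromosomes to the middle of the spindle (chr4:103105349-103198445), was at 25.0, 7.26 and 30.6 TPM in Hey parental cells, PGCCs and daughter cells, and at 41.6, 17.8 and 24.9 TPM in SKOV3. Both PGCC values were the lowest of their line, with differences of -1.66 and -1.18. CENPF, a large protein of the fibrous corona, had -2.07 in Hey and -0.57 in SKOV3. CENPJ, a centriole protein that shares only the name, had -1.17 and -0.87, and CENPV had -0.49 in SKOV3.

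The SKOV3 differences followed base composition, and this touches the SKOV3 calls above. Across 13468 tested genes, the Spearman correlation between the GC content of the canonical transcript and the PGCC to parental difference was 0.72 in SKOV3 and -0.04 in Hey, and over the 33 members it was 0.70 and 0.43. The genes share 1 pair of libraries, so these are descriptions. The members are AT-rich, with a median GC content of 41.7% (32.8% to 66.5%) against 47.7% for tested genes. Of the 22 members under 45% GC, 12 were called lower in SKOV3 PGCCs, against 9.53% of all tested genes under 45%, and the medians were -1.12 and -0.39. Of the 11 members at 45% or more, 1 was called lower, against 1.16% of all such genes. The 45% limit was chosen after seeing the data.

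With a smooth trend over GC content and transcript length removed, Hey again had 20 members called lower (5.06% of all tested genes with a GC value) and its median was -1.29. SKOV3 had 6 called lower in place of 13, against 2.63% of all such genes, and a median of -0.54. CENPH, SKA3 and SPC25 then stayed below -1 in both lines, against 0.334% of all such genes, at -1.34, -1.46 and -1.42 in SKOV3. The other genes called in both lines, CENPE, CENPK, CENPQ, CENPU, KNL1, NDC80 and NUF2, lost the SKOV3 call, at -0.88 to -0.63. CENPP, SKA1 and CENPV made up the other SKOV3 calls, at -1.45, -1.28 and -1.16. CENPT was no longer called higher, at 0.35. What part the GC trend has in the SKOV3 values was not tested, and the difference in the label of that library, day 3 or day 7, cannot be told apart from it.

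**Figure D3:**
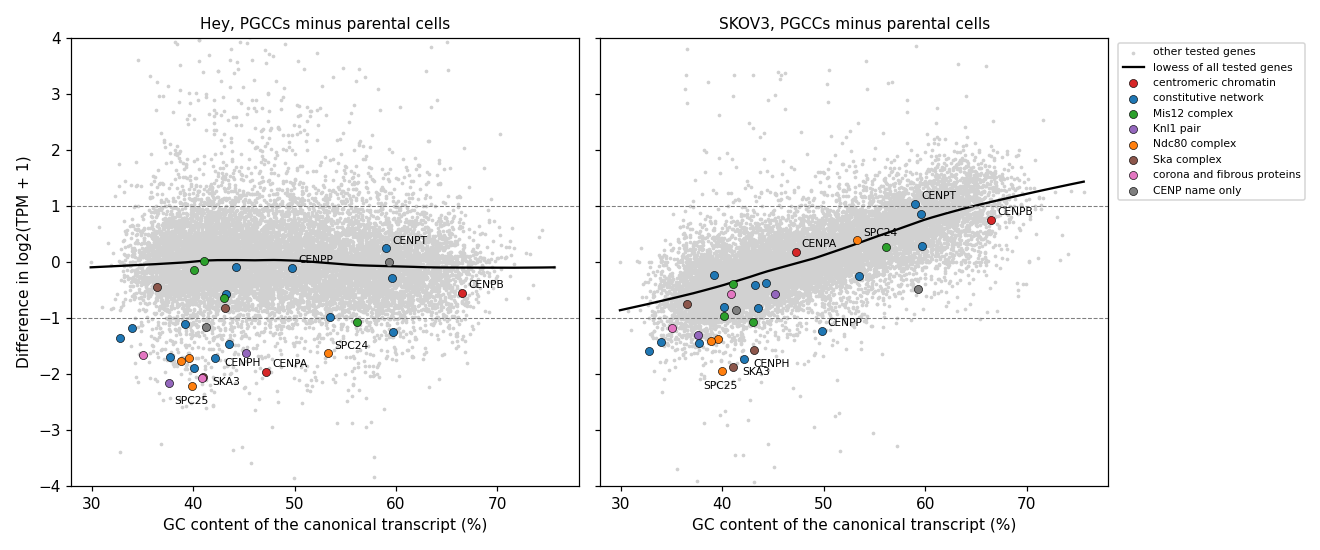
Difference of log2(TPM + 1) between PGCCs and parental cells against GC content of the canonical transcript (%), for Hey (left) and SKOV3 (right), with members coloured by role, other tested genes in grey and the lowess curve of all tested genes in black. The curve is flat in Hey and climbs with GC content in SKOV3, where most members lie on or below it, and 40 genes in Hey and 21 in SKOV3 fall outside the axes.

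The second comparison asks where the genes stood in daughter cells against the PGCCs they bud from. In Hey, 24 of 33 genes (72.7%) were called higher in daughter cells and 0 lower, against 9.95% and 8.13% of all tested genes, with a median difference of 1.74 against 0.03. In SKOV3, 2 genes were called higher and 1 lower, against 14.6% and 9.25% of all tested genes, with a median of 0.16 against 0.12. CENPU and KNL1 were the 2, and they were called in both lines (1.21% of all tested genes), with differences of 1.68 and 2.02 in Hey and 1.08 and 1.11 in SKOV3. The gene called lower in SKOV3 was CENPB, at -1.57. Median-ratio scaling, under which the median of all tested genes was 0.00, gave 0 higher and 1 lower, against 11.4% and 11.1% of all tested genes. With the GC and length trend removed, 0 members were called higher in SKOV3, against 10.4% of all tested genes with a GC value, and the median was -0.18, on the other side of 0.

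NDC80 had the largest difference of the members in Hey daughter cells, 3.18 against PGCCs, and 0.24 in SKOV3. All 4 genes of the Ndc80 complex were called higher in Hey, from 1.60 to 3.18, as were 10 of the 14 network genes, KNL1, ZWINT, CENPE and CENPF. Of all tested genes 9.95% were. CENPA had 2.40 in Hey and -0.30 in SKOV3. Not called in Hey were CENPB, CENPL, CENPQ, CENPT, CENPV, CENPX, MIS12, NSL1 and SKA2, with differences from -0.19 to 0.90. The library of Hey PGCCs enters both this comparison and the one with parental cells, so the lower calls there and the higher calls here are not separate observations.

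The third comparison sets daughter cells against untreated parental cells. In Hey, 4 members (12.1%) were called higher and 1 (3.03%) lower, against 6.31% and 3.73% of all tested genes, with a median of 0.39 against 0.05. The lower count is thus near the background. The 4 were NDC80 at 1.48, SKA1 at 1.31, CENPP at 1.29 and CENPM at 1.16, and the gene called lower was CENPQ at -1.12. In SKOV3, 5 members were called lower and 0 higher, against 6.34% and 15.1% of all tested genes, with a median of -0.50 against 0.15. Of the 33 members 31 lay below 0, and the share of all tested genes below 0 was not counted. The 5 were SKA3 at -1.74, MIS12 at -1.32, CENPJ at -1.30, NDC80 at -1.13 and NUF2 at -1.03. The share of members called lower in SKOV3 was 15.2%, and with the GC and length trend removed 6 were called lower, against 7.74% of all tested genes with a GC value. NUF2 then lost its call, at -0.90, and CENPB and CENPN were added at -1.20 and -1.01. Median-ratio scaling gave 10 called lower, against 8.34% of all tested genes.

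NDC80 was the 1 member called in opposite directions in daughter cells of the lines, higher in Hey and lower in SKOV3, against 0.634% of all tested genes with that pattern. Its 182 TPM in Hey daughter cells was close to the 188 TPM of SKOV3 parental cells, and its 85.0 TPM in SKOV3 daughter cells stood nearer to the 71.9 TPM of SKOV3 PGCCs. NUF2, which forms a dimer with it, was at 73.0 and 69.2 TPM in Hey daughter and parental cells, a difference of 0.08. Whether the difference of NDC80 differs between the lines was not tested, since no state has a second library.

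**Figure D4:**
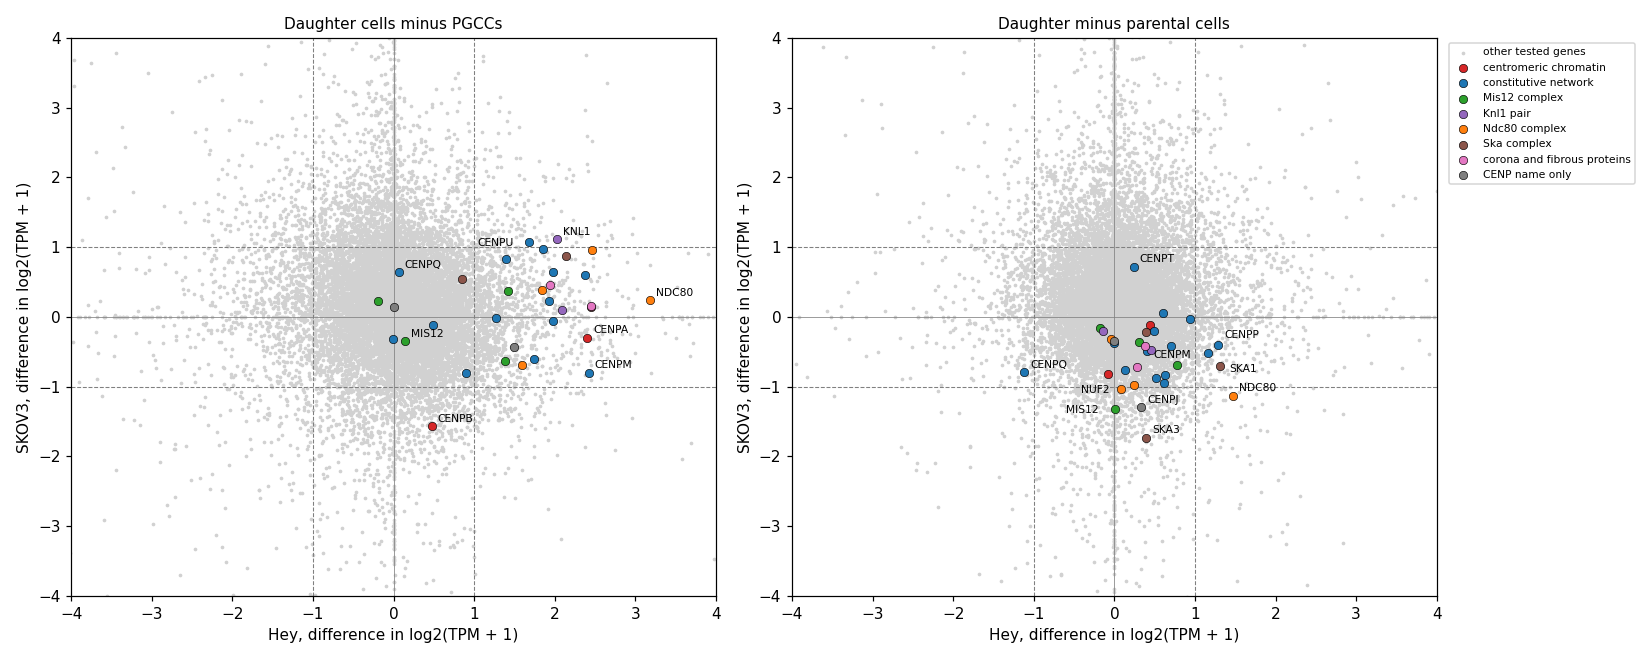
Differences of log2(TPM + 1) in Hey (x axis) and SKOV3 (y axis), between daughter cells and PGCCs (left) and between daughter and parental cells (right), with members coloured by role and dashed lines at the 2-fold call. On the left the members spread to the right along the Hey axis and lie between -1.57 and 1.11 in SKOV3. On the right 26 of the 33 lie above 0 in Hey and 31 below 0 in SKOV3. The medians of all tested genes on the right were 0.05 in Hey and 0.15 in SKOV3. Outside the axes fall 199 and 188 other genes.

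A fit over all 6 libraries with limma, in which the 2 lines serve as repeats of each state, called none of the members. The fit has 2 residual degrees of freedom and a Benjamini-Hochberg adjustment over 14988 genes, and 0.0200% of all genes passed an adjusted p of 0.05 between PGCCs and parental cells, 0.0133% between daughter and parental cells, and 0% between daughter cells and PGCCs. The smallest adjusted p of a member in limma was 1, 1 and 0.908 in these comparisons. SPC25 had the lowest unadjusted p of the members between PGCCs and parental cells, with a mean difference of -2.08 ± 0.46 (SE). At an unadjusted p under 0.05, 11 of the 33 members were lower in PGCCs than in parental cells, against 1.57% of all tested genes. In the same way 11 were higher in daughter cells than in PGCCs, against 3.08%, and 1, CENPQ, was lower in daughter than in parental cells, against 0.961%.

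Other genes of the same machinery were counted in the same way. Of 21 further genes for CENP-A loading, the chromosomal passenger complex, the spindle checkpoint, the RZZ complex with Spindly, the shugoshins and CENP-R, 15 were called lower in PGCCs of Hey and 8 in those of SKOV3, against 5.22% and 4.96% of all tested genes, with medians of -1.78 and -0.78. With the GC and length trend removed, 15 and 3 were called lower, against 5.06% and 2.63%. The passenger complex, which corrects faulty attachments, was called lower as 4 of 4 genes in Hey, from -2.87 for AURKB to -2.20 for CDCA8, and as 0 of 4 in SKOV3, from -0.45 to 0.06. With the GC and length trend removed, 0 of 4 were again called lower in SKOV3, from -0.92 for INCENP to -0.36 for AURKB. HJURP, the chaperone that loads CENP-A, had -1.87 in Hey and -0.65 in SKOV3, and SGO2, which protects cohesion at centromeres, had -2.06 and -1.79. Against PGCCs, 18 of the 21 were called higher in Hey daughter cells and 0 in SKOV3, where 9.95% and 14.6% of all tested genes were. Against parental cells, 1 was called higher in Hey daughter cells, INCENP at 1.09, and 2 lower in SKOV3, BUB1 at -1.09 and SPDL1 at -1.11, against 6.31% and 6.34% of all tested genes, so these counts are near the background.

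Markers of dividing cells were set beside the members. Of MKI67, TOP2A, CDK1, CCNB1, PCNA, MCM2, RRM2 and TYMS, 7 of 8 were called lower in PGCCs of Hey and 4 of 8 in those of SKOV3, against 5.22% and 4.96% of all tested genes, with medians of -1.96 and -0.95. With the GC and length trend removed these counts were 7 and 3, against 5.06% and 2.63%. Against PGCCs, 7 of the 8 were called higher in Hey daughter cells and 3 in SKOV3, where 9.95% and 14.6% of all tested genes were. With the trend removed, 0 of the 8 were called higher in SKOV3 and 1 lower, against 10.4% and 7.42%. The summed level of the 8 markers was 1197, 391 and 1586 TPM in Hey parental cells, PGCCs and daughter cells, and 2621, 1270 and 1514 TPM in SKOV3. That is the order of the summed member levels in each line. MKI67 had -2.51 in Hey and -0.24 in SKOV3, and MCM2 had -1.87 and 0.53. The part that a lower share of dividing cells has in the member values was not tested.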

How the data were processed

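Total RNA of 6 libraries, 1 for each of 3 states of Hey and SKOV3, was sequenced. Per the labels and the study's methods, the authors trimmed reads (fastp), quantified them on the human transcriptome (hg38) with salmon 0.14.1 and deposited TPM values by gene symbol. The annotation release, bias options and the step from transcripts to genes are not given in the sources used here. TPM is relative within a library, so a change in a few abundant mRNAs shifts all others. The members and all lists were chosen with earlier results of these data known.

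Differences were taken within a line on log2(TPM + 1) where the mean TPM reached 1, and called at 2-fold. The 6 libraries were also fitted with limma 3.58.1 in R 4.3.3 (state and line as terms, trended eBayes, Benjamini-Hochberg), two-sided. GC content and transcript length came from the canonical transcripts of GENCODE release 44 (GRCh38) by symbol, for 13468 of the 14988 tested genes and 33 of 33 members. Their trend was subtracted by lowess (span 0.3, 2 passes). Promoters were those of RefSeq. Lowess came from statsmodels 0.14.6, and correlations from scipy 1.17.1, under Python 3.11.15 with pandas 2.3.3 and numpy 2.4.6, and the scripts were tested on simulated data.

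TPM of every library is given for members called alike in both lines, for those called in opposite directions and for CENPA, and the others by differences, ranges and counts. SKA2, CENPT and SPC24 were given in TPM as well after their values were seen. Alternatives were a pseudocount of 0.1, no filter or a mean TPM of at least 5, median-ratio scaling, quantile normalization, mitochondrial genes left out, calls at 1.5-fold and 3-fold, the GC and length trend removed, and limma with other settings. Added after seeing the data were the split at 45% GC and limma without the SKOV3 PGCC library.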

Additional observations from a re-analysis of the deposited data

Results flagged for a closer look

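NDC80 had opposite differences between daughter and parental cells in the lines, 1.48 in Hey and -1.13 in SKOV3 on the log2(TPM + 1) scale, and was therefore singled out. Each value comes from 1 library against 1 library, and the difference between the lines was not tested. Under other settings of scaling, pseudocount and GC trend the Hey value stayed between 1.35 and 1.55 and the SKOV3 value between -1.34 and -1.03. The filter settings leave a gene's difference unchanged and so could not test it.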

How the results depend on the processing

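Of 497 values of called members under alternatives, 473 kept direction and call, 24 lost the call and 0 changed direction. No filter and a mean TPM of at least 5 leave each gene's difference unchanged, so their 71 values each could not lose a call. Removal of the GC and length trend gave 14 of the lost calls and kept 57. Median-ratio scaling and quantile normalization moved the median of all tested genes from 0.15 to -0.02 and -0.04 between SKOV3 daughter and parental cells and from 0.12 to 0.00 between SKOV3 daughter cells and PGCCs, and leaving out mitochondrial genes moved it to 0.22 in the latter and from 0.00 to 0.11 between Hey PGCCs and parental cells. The cause of the changes below was not tested. Between PGCCs and parental cells, removal of the GC and length trend left 6 SKOV3 members called lower and 0 higher. Of all tested genes with a GC value 2.63% and 2.24% were. Called lower in both lines were then 3, against 0.334%. Median-ratio scaling and quantile normalization left 0 SKOV3 members called higher, against 8.53% and 8.24% of all tested genes. At 1.5-fold 3 SKOV3 members were called higher, against 22.9%. At 3-fold 13 were called lower in Hey, 4 in SKOV3 and 3 in both, against 1.71%, 1.014% and 0.127%. At 3-fold 0 were called higher in Hey and 0 in SKOV3, against 2.95% and 2.01%. Split at 45% GC, 5 of 11 Hey and 1 of 11 SKOV3 members of the GC-rich side were called lower. Among all such genes 5.18% and 1.16% were. The member counts were smaller in part because fewer genes were counted. Between daughter and parental cells, median-ratio scaling gave 10 SKOV3 members called lower, against 8.34% of all tested genes. At 1.5-fold 15 were called lower and 1 higher in SKOV3, against 13.6% and 28.1%. At 1.5-fold 1 was called lower in both lines and 10 higher in Hey, against 1.52% and 17.2%. At 3-fold 1 was called lower in SKOV3 and 0 lower and 0 higher in Hey, against 2.94%, 1.19% and 2.21%. Between daughter cells and PGCCs, the SKOV3 median of 0.16 was 0.010 with median-ratio scaling, 0.28 without mitochondrial genes, 0.083 with quantile normalization and -0.18 after subtraction of the trend with GC and length. The members called higher in SKOV3, 2 in the main setting, were 0 with median-ratio scaling, 4 without mitochondrial genes, 9 at 1.5-fold, 0 at 3-fold and 0 with the trend removed, against 11.4%, 17.8%, 27.97%, 6.22% and 10.4% of all genes tested, and those called in both lines were 0, 4, 8, 0 and 0, against 0.901%, 1.39%, 4.70%, 0.207% and 0.683%. The SKOV3 members called lower were 3 with quantile normalization, 6 at 1.5-fold, 0 at 3-fold and 0 with the trend removed, against 12.7%, 18.7%, 3.71% and 7.42%. Apart from the calls in both lines, these shares of members are near or under the shares of all genes. In limma at an unadjusted p under 0.05, the model without the cell line term gave 6 members lower in PGCCs than in parental cells. It gave 3 higher in daughter cells than in PGCCs, against 0.420% and 0.587% of all tested genes. Median-ratio scaling gave 7 higher in daughter cells than in PGCCs, against 2.25%. The fit without the SKOV3 PGCC library leaves 1 PGCC library, which is assumed to vary like the others, so its counts are not given. With all 6 libraries, 0 members had an adjusted p under 0.05 in limma under any setting run. No paired analysis was possible by replicate number, because each group holds 1 library, and the cell line term of limma is what pairs the states within a line.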
